A study of Mus musculus with 4 samples.

Results

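The 10 genes described here handle iron in the spleen: 4 of cellular iron uptake (Tfrc, Steap3, Slc11a2, Slc25a37), the 2 ferritin chains (Fth1, Ftl1) and 4 of iron recycling by macrophages (Slc40a1, Hmox1, Spic, Slc11a1). They were chosen by name, as the rows whose Ensembl identifier carries these symbols in the GRCm38 annotation, and all 10 were found among 25509 gene rows and passed the low-count filter. RNA was measured in splenocytes of wild-type mice (2 libraries) and of mice labelled Trim21-/- (2 libraries, called knockout below). Mice of both genotypes were 8 weeks old, shaved on the back and exposed to UVB at 100 mJ/cm2. Exposures of 1 and 3 weeks are named in the labels, which do not say which of them these mice had, and unexposed mice were not analysed here. Separate animals per library are not stated in the labels, but the Xist and Y-linked counts given below show that the 2 libraries of a genotype did not come from the same mouse.

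A developing red cell takes up iron as transferrin bound to the transferrin receptor (Tfrc), reduces it in the endosome (Steap3), moves it into the cytosol (Slc11a2, DMT1) and carries it into the mitochondrion (Slc25a37, mitoferrin), where it is built into haem. Ferritin, a shell of heavy (Fth1) and light (Ftl1) chains, stores iron that is not in use. Red pulp macrophages of the spleen engulf aged red cells, open the haem ring with haem oxygenase (Hmox1) and return the iron to blood through ferroportin (Slc40a1). The transcription factor Spi-C (Spic) is needed for these macrophages to form.

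Transcripts of several of these genes carry iron-responsive elements, short hairpins with a 6-base loop that iron-regulatory proteins bind when iron is scarce. They are shown because the search described here matched 4 of the genes. In general, such a hairpin in the 5′ untranslated region holds back translation, and those in the 3′ untranslated region of Tfrc protect the transcript from decay. The search took a C, then 5 bases, then the loop CAGTGN with a last base other than G, then 5 bases able to pair with the first 5, G with T included, on the transcribed strand of coding transcripts. The letters are from GENCODE release M21 transcripts on GRCm38, given 5′ to 3′ as DNA with the loop in capitals.
Fth1, 5′ end, chr19:9982733-9982759, plus strand: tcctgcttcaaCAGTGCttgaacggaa
Ftl1, 5′ end, chr7:45459780-45459806, minus strand: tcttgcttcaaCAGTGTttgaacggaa
Slc40a1, 5′ end, chr1:45925466-45925492, minus strand: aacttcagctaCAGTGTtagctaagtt
Tfrc, 3′ end, chr16:32631220-32631246, plus strand: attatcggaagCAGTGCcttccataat
Tfrc, 3′ end, chr16:32631599-32631625, plus strand: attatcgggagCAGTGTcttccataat
Tfrc, 3′ end, chr16:32631664-32631690, plus strand: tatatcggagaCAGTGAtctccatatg
Tfrc, 3′ end, chr16:32631711-32631737, plus strand: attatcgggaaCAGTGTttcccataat
A match stood in the 5′ untranslated region of 23 of 20217 genes (0.114%), 3 of them listed here, and in the 3′ untranslated region of 100 of 20874 genes (0.479%), where Tfrc alone had more than 1. The other 6 genes held no match to these letters. This does not show that they lack such an element, since a hairpin with other letters or pairing would be missed. A match is also not a measurement of binding. Counts per gene do not separate transcripts that hold such a site from those that do not.

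Library totals ran from 36173694 to 41924885 counts. Levels are given as CPM, a library's counts relative to its TMM-adjusted total, and log2 fold changes compare knockout with wild type, each with the standard error (SE) from edgeR's quasi-likelihood test. A gene passed when its p, adjusted by Benjamini-Hochberg over 13532 tested genes, was under 0.05. Trim21 (GRCm38 chromosome 7, 102557921 to 102565486) had 27.9 and 40.9 CPM in wild type, against 13.4 and 20.4 CPM in the knockout libraries, a log2 fold change of -1.02 ± 0.42 (adjusted p 0.17). The labels do not say which exons are deleted, so this count does not check the genotype. In each genotype library 1 had Xist at or under 0.045 CPM and library 2 at 932 CPM in wild type, against 288 CPM in the knockout libraries, while 4 Y-linked genes summed to 109 and 108 CPM in libraries 1 and 0 in libraries 2. Differences between same-numbered libraries are therefore given beside the pooled ones.

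The iron uptake genes were higher in knockout splenocytes in 4 of 4 cases, with 2 passing (Steap3 and Slc11a2). The ferritin genes had 3.02-fold (Fth1) and 2.70-fold (Ftl1) higher fitted levels without passing. The recycling genes differed least, and 0 of 4 passed. Over all genes, 6477 of 13532 tested had a positive log2 fold change. Of all 10, 2 passed as higher, where 5.9% of all tested genes did, and 0 passed as lower, where 0.392% of all did. DESeq2 passed 6 of the 10 as higher (11.6% of all genes) and 0 as lower (6.58% of all), and limma-voom passed 4 as higher (6.58% of all) and 0 as lower (0.495% of all). With an unadjusted p under 0.05, 5 were higher and 0 lower, where 15.5% and 12.3% of all tested genes were. For 8 of the 10 both knockout libraries lay above both wild-type libraries, as for 30.3% of tested genes, and for 0 both lay below, as for 30.1%. In splenocyte RNA, more cells of a type and more RNA per cell cannot be told apart. Erythroblast markers, given below, were higher in the same libraries.

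**Figure D1:**
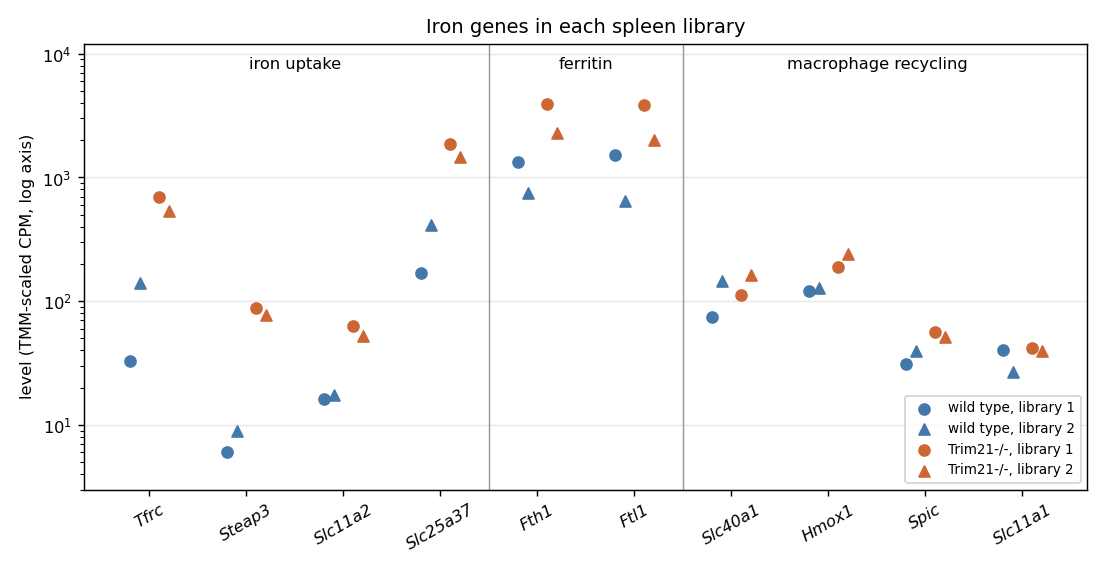
Level of each gene (TMM-scaled CPM, log axis) in the 4 libraries, with wild type in blue, knockout in orange, circles for libraries 1 and triangles for libraries 2. The 4 uptake genes and the 2 ferritin genes have both knockout points above both wild-type points, and Slc40a1 and Slc11a1 overlap.

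Steap3, the ferrireductase that turns endosomal ferric iron into the ferrous form, showed the largest fold change of the 10 genes by edgeR, except without wild-type library 2, when Tfrc did (chromosome 1, 120190757 to 120272705, minus strand; ENSMUSG00000026389). It had 6.005 and 8.99 CPM in wild type, against 88.4 and 77.5 CPM in the knockout libraries. The genotypes lay far apart relative to the spread within each. Its log2 fold change was 3.47 ± 0.43 (adjusted p 0.011, n = 2 per genotype, by edgeR), an 11.1-fold rise. Between libraries 1 it was 14.7-fold higher and between libraries 2 8.62-fold higher. At the 0.05 threshold it passed in 13 of 13 other fits, with log2 fold changes from 2.92 to 3.79, and at an adjusted p under 0.01 it did not pass by edgeR.

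Slc11a2, the DMT1 transporter that releases ferrous iron from the endosome, rose less (chromosome 15, 100387898 to 100425072, minus strand; ENSMUSG00000023030). Its wild-type libraries had 16.3 and 17.5 CPM and its knockout libraries 62.5 and 52.3 CPM. Replicates were close to each other in both genotypes. The log2 fold change was 1.77 ± 0.38 (adjusted p 0.037 by edgeR), or 3.85-fold between libraries 1 and 2.99-fold between libraries 2. Slc11a2 missed the threshold without knockout library 1 (1.63, adjusted p 0.31), without knockout library 2 (1.90, adjusted p 0.098) or when scaled by library totals alone (1.23, adjusted p 0.15). The overlapping gene Gm5475 held 0 to 3 counts per library.

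Tfrc, the receptor that brings transferrin-bound iron into the cell, had the widest ratio between wild-type libraries of the 10 genes (chromosome 16, 32608920 to 32632794, plus strand; ENSMUSG00000022797). It had 32.9 and 140.0 CPM in wild type, against 698 and 534 CPM in the knockout libraries. Wild-type library 2 was 4.25 times library 1, yet the lower knockout library was still above it. Its log2 fold change of 2.83 ± 0.72 (adjusted p 0.063) fell just outside the threshold. The difference was 21.2-fold between libraries 1 and 3.81-fold between libraries 2. With any 1 library left out Tfrc passed, at a log2 fold change of 2.12 without wild-type library 1 (adjusted p 0.012), 4.23 without wild-type library 2 (3.8e-07), 2.62 without knockout library 1 (0.024) and 3.02 without knockout library 2 (0.0053).

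Slc25a37, the mitoferrin that supplies iron to the mitochondrion for haem, followed the same order of libraries (chromosome 14, 69241848 to 69285112, minus strand; ENSMUSG00000034248). Its levels were 169.5 and 415 CPM in wild type, against 1876 and 1456 CPM in the knockout libraries, so wild-type library 2 was again the nearer to the knockout. The log2 fold change was 2.51 ± 0.63 (adjusted p 0.061), 11.1-fold between libraries 1 and 3.51-fold between libraries 2. It passed without wild-type library 1 (1.99, adjusted p 0.046) and without wild-type library 2 (3.30, 0.0015). Without knockout library 1 its adjusted p was 0.19, and without knockout library 2 0.064. Of its 75-base windows 7.51% also occur in Gm16867, a gene with 19.4 and 54.4 CPM in wild type, against 188 and 143 CPM in the knockout libraries, so a small part of the split between them is an estimate.

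DESeq2 and limma-voom each passed all 4 uptake genes as higher, where 11.6% and 6.58% of all tested genes did, against 2 by edgeR. The median log2 fold change of the 4 by edgeR was 2.67. Dropping wild-type library 1 or 2 gave medians of 2.06 and 3.54. Dropping knockout library 1 or 2 gave 2.47 and 2.86. Tfrc is also high in dividing cells of other types. All 6 markers of dividing cells were higher in the knockout and 5 passed by edgeR, where 5.9% of all tested genes passed as higher. The summed level of these 6 markers was 168 and 612 CPM in wild type, against 2363 and 2058 CPM in the knockout libraries, with wild-type library 2 above library 1 as for Tfrc. Birc5 (survivin), Cdk1 and Top2a, which act in mitosis or DNA replication, rose by 4.16, 3.76 and 2.49 on the log2 scale (adjusted p 0.011, 0.011 and 0.035). Mki67, the Ki-67 antigen, had 68.6 and 445 CPM in wild type, against 873 and 942 CPM in the knockout libraries (adjusted p 0.20). The part of dividing cells in the values of Tfrc was not tested.

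**Figure D2:**
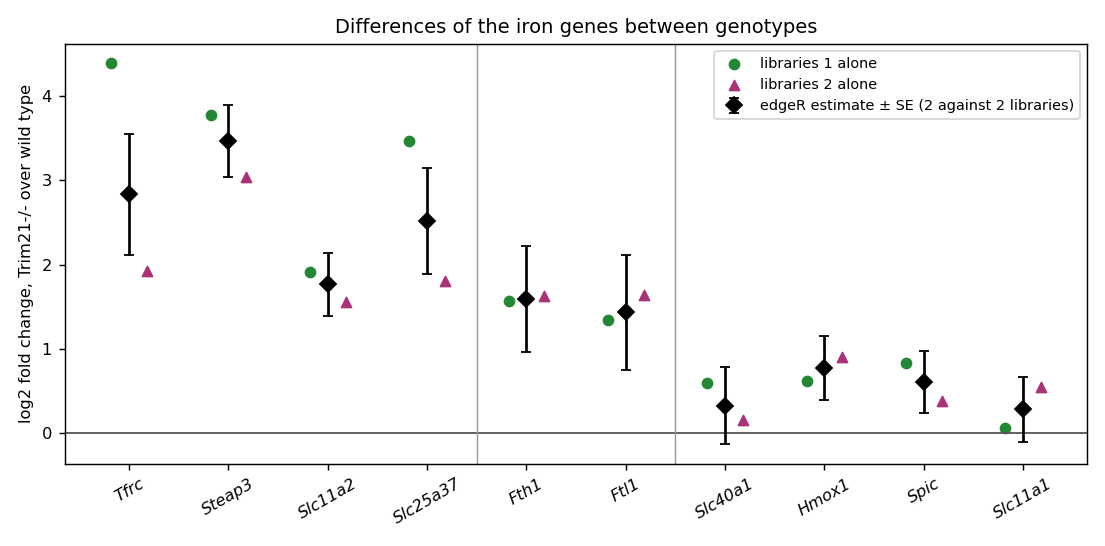
Log2 fold change of each gene, knockout over wild type: black diamonds with bars are the edgeR estimate ± SE over 2 against 2 libraries, green circles the difference between libraries 1 and purple triangles that between libraries 2, the last 2 computed on CPM plus 0.5. Tfrc, Steap3 and Slc25a37 differ most between libraries 1, the ferritins lie near 1.5 and the recycling genes lie below 1.

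The ferritin genes were the most abundant of the 10. Fth1, the heavy chain that oxidises incoming iron, had 1323 and 744 CPM in wild type, against 3942 and 2293 CPM in the knockout libraries (chromosome 19, 9980598 to 9985098, plus strand; ENSMUSG00000024661). Ftl1, the light chain that helps iron nucleate inside the shell, had 1525 and 648 CPM in wild type, against 3861 and 2014 CPM in the knockout libraries (chromosome 7, 45457944 to 45459884, minus strand; ENSMUSG00000050708). In both, each knockout library lay above each wild-type library, and library 2 lay below library 1 in both genotypes.

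The log2 fold change was 1.59 ± 0.63 for Fth1 (adjusted p 0.16) and 1.43 ± 0.68 for Ftl1 (adjusted p 0.22), so neither passed by edgeR with library number left out of the model. With library number in that model both passed, as given below, although the labels state no pairing. Between same-numbered libraries Fth1 was 2.98-fold and 3.08-fold higher and Ftl1 2.53-fold and 3.11-fold higher. The spread within a genotype was thus shared by same-numbered libraries. DESeq2's Wald test passed both (adjusted p 0.011 and 0.042) and limma-voom neither (0.13 and 0.18). The 2 chains kept similar proportions, with a ratio of Fth1 to Ftl1 counts of 0.868 and 1.15 in wild type, against 1.02 and 1.14 in the knockout.

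Ftl1 has many near-identical copies in the mouse genome, and 69.9% of its 75-base windows occur in another annotated gene, so its counts depend on how reads were shared out. The copy Ftl1-ps1 held 309 to 722 counts per library, far fewer than Ftl1 itself. For Fth1 the share was 2.32%. The 6 testis-type Fthl17 genes in the table held 0 counts in every library.

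Recycling genes showed small differences. Hmox1, the enzyme that opens the haem ring, had 122 and 127 CPM in wild type, against 188 and 239.7 CPM in the knockout libraries (chromosome 8, 75093621 to 75100589, plus strand; ENSMUSG00000005413). The genotypes did not overlap and the wild-type libraries nearly coincided. Its log2 fold change was 0.78 ± 0.38 (adjusted p 0.22), 1.54-fold between libraries 1 and 1.88-fold between libraries 2. Scaled by library totals alone it was 0.31.

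Spic, the factor required for red pulp macrophages, had 31.3 and 39.5 CPM in wild type, against 56.0 and 51.6 CPM in the knockout libraries (chromosome 10, 88674772 to 88685015, minus strand; ENSMUSG00000004359). Again the groups did not overlap, but the gap was small, with a log2 fold change of 0.60 ± 0.37 (adjusted p 0.31). Library totals alone gave 0.074.

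Slc40a1, the iron exporter ferroportin, had 74.1 and 145 CPM in wild type, against 112 and 163 CPM in the knockout libraries (chromosome 1, 45908068 to 45926523, minus strand; ENSMUSG00000025993). Here the genotypes overlapped, and libraries 2 were the higher in both. Its log2 fold change was 0.33 ± 0.46 (adjusted p 0.66). The sign turned with library totals alone (-0.16) and without wild-type library 1 (-0.091).

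Slc11a1, the NRAMP1 transporter of phagosomes in macrophages and neutrophils, had 40.0 and 26.7 CPM in wild type, against 41.8 and 39.4 CPM in the knockout libraries (chromosome 1, 74375195 to 74386062, plus strand; ENSMUSG00000026177). The groups overlapped, and the log2 fold change was 0.28 ± 0.39 (adjusted p 0.66), or -0.21 with library totals alone. All 14 neutrophil markers were higher in the same knockout libraries and 11 passed, where 5.9% of all tested genes passed as higher. Their summed level there was 27997 and 26036 CPM against 1123 and 503 CPM in wild type. The rise was uneven, and Cxcr2, Retnlg and Csf3r did not pass. Their log2 fold changes were 1.41, 1.86 and 0.38 (adjusted p 0.065, 0.13 and 0.54 by edgeR). S100a9, a subunit of calprotectin, rose from 376 and 119 CPM to 7628 and 6354 CPM (adjusted p 0.021), and the granule protein gene Ngp from 103 and 67.1 CPM to 7063 and 7233 CPM (0.011). The part of neutrophils in the values of Slc11a1 was not tested.

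None of the 4 recycling genes passed by edgeR, DESeq2 or limma-voom with library number left out of the model. In that edgeR fit 0 of them had an unadjusted p under 0.05. With library number in the edgeR model Hmox1 passed, as given below. Their median log2 fold change was 0.47, against 2.67 for the uptake genes, 1.51 for the ferritins and -0.056 for all tested genes. Scaling by library totals alone lowered the median of all genes to -0.56 and these 3 medians to -0.041, 2.07 and 0.95. No difference between these groups of genes was tested.

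Transcript levels per length placed ferritin far above the rest. Per kilobase of the principal coding transcript, the mean level in wild type was 1123 ± 640.3 CPM for Ftl1 and 692 ± 274 CPM for Fth1 (SD, n = 2). Hmox1 followed with 79.5 ± 2.48, Slc25a37 with 70.0 ± 41.5, Slc40a1 with 32.5 ± 14.9, Spic with 20.1 ± 3.27 and Tfrc with 17.7 ± 15.5 CPM per kilobase. The lowest were Slc11a1 with 14.4 ± 4.05, Slc11a2 with 5.58 ± 0.29 and Steap3 with 1.45 ± 0.41 CPM per kilobase. Among neighbours in this order, the libraries of Slc11a1, Slc11a2 and Steap3 did not overlap, nor did those of Fth1 and Hmox1, whereas those of each remaining pair did.

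In the knockout Slc25a37, at 399 ± 71.1 CPM per kilobase, stood clear of Hmox1 at 136 ± 23.5. Tfrc, at 126 ± 23.8 CPM per kilobase, overlapped Hmox1 and lay above Slc40a1 at 40.8 ± 10.6. Steap3 reached 16.1 ± 1.496 CPM per kilobase, and its libraries overlapped those of Slc11a1 (17.5 ± 0.75). The order of Ftl1 and Fth1 depends on the transcript taken for Fth1, whose coding transcripts differ in length.

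Markers of the 2 cell types to which these genes are usually assigned were then set beside them. Of 18 erythroblast markers 17 were in the annotation and none was at 0. All 17 were higher in the knockout and 11 passed, where 6477 of 13532 tested genes were higher and 5.9% passed as higher. Their summed level was 1627 and 2838 CPM in wild type, against 21789 and 13764 CPM in the knockout libraries. Among the most abundant, Car2 (carbonic anhydrase) rose by 4.09 on the log2 scale (adjusted p 0.023). Slc4a1, the anion exchanger of the red cell membrane, had a log2 fold change of 3.14 (adjusted p 0.074), and Alas2, the first enzyme of erythroid haem synthesis, 1.85 (0.13). The part of erythroblasts in the values of the iron genes was not tested. Of 15 red pulp macrophage markers, 9 were higher, 0 passed by edgeR, DESeq2 or limma-voom, and 0 had an unadjusted p under 0.05. By edgeR the median log2 fold change was 0.28 for these 15 macrophage markers. Dropping 1 library gave medians from 0.19 (knockout library 1 dropped) to 0.28 (wild-type library 1 dropped) for the same markers. None was at 0, and their summed level was 1547 and 1175 CPM in wild type, against 2072 and 1597 CPM in the knockout libraries. Both knockout libraries lay above both wild-type libraries for 2 of the 15, and below for 3 (Adgre1, Axl and Itgad). Csf1r, the receptor for macrophage colony-stimulating factor, had 286 and 170.4 CPM in wild type, against 227 and 191 CPM in the knockout libraries, and Vcam1, an adhesion molecule of red pulp macrophages, had 110.0 and 184 against 176 and 203 CPM. The complement genes C1qa and C1qb, made by tissue macrophages, had log2 fold changes of 0.84 and 1.196 (adjusted p 0.32 and 0.21). C1qa had 240 and 115 CPM in wild type, against 403 and 234 CPM in the knockout libraries. For C1qb the values were 181 and 77.7 against 398 and 195 CPM, so both genes raised the summed level.

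Relative to the erythroblast markers, uptake genes were lower in the knockout for 3 of 4, by library. The value is the gene's log2 CPM minus the mean log2 CPM of the 17 markers, in each library, with 0.5 CPM added. For Tfrc it was 0.61 and 1.01 in wild type, against 0.085 and 0.26 in the knockout. For Slc25a37 it was 2.95 and 2.57 in wild type, against 1.51 and 1.70 in the knockout, and for Slc11a2 -0.39 and -1.96 against -3.39 and -3.09. These 3 genes were thus higher in the knockout by less than the mean of the markers, with no overlap. Steap3 was at -1.76 and -2.88 in wild type, against -2.89 and -2.52 in the knockout, so there the groups overlapped and its difference was close to that of the markers. These values are descriptions with no test.

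The ferritins stood between the lists. Against erythroblast markers Fth1 went from 5.91 and 3.41 in wild type to 2.58 and 2.36 in knockout, and Ftl1 from 6.12 and 3.22 to 2.55 and 2.17. Against red pulp macrophage markers Fth1 went from 4.35 and 3.58 to 5.61 and 4.94, and Ftl1 from 4.55 and 3.38 to 5.58 and 4.76. In the knockout both chains were therefore lower relative to the first list and higher relative to the second, without overlap of the groups.

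Recycling genes kept close to the macrophage markers. Slc40a1 lay at 0.20 and 1.22 in wild type, against 0.48 and 1.13 in the knockout, and Slc11a1 at -0.68 and -1.19 against -0.93 and -0.90, so both overlapped. Hmox1 lay at 0.91 and 1.04 in wild type, against 1.22 and 1.69 in the knockout, and Spic at -1.03 and -0.64 against -0.51 and -0.52. The last 2 did not overlap, with mean differences of 0.48 and 0.32 on the log2 scale. Leaving out any 1 marker moved these differences by less than the spread between libraries.

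**Figure D3:**
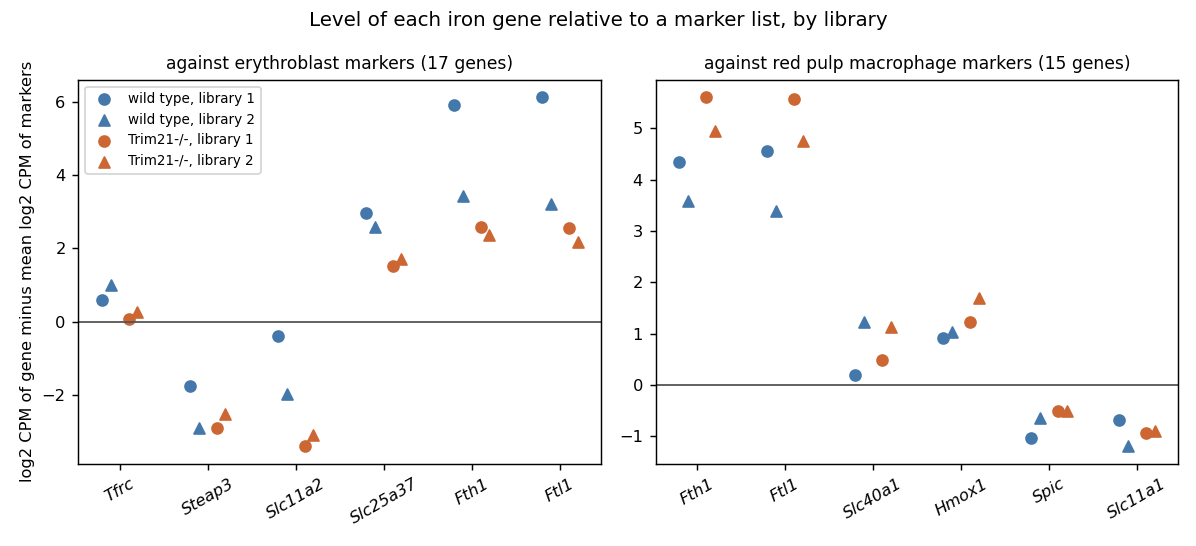
Log2 CPM of each gene minus the mean log2 CPM of a marker list, in each library, with 17 erythroblast markers on the left and 15 red pulp macrophage markers on the right. Tfrc, Slc11a2, Slc25a37 and the ferritins sit lower in the knockout (orange) than in wild type (blue) on the left, and Slc40a1 and Slc11a1 overlap on the right.

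Markers of other cell types were set beside the iron genes as well. Of 3 tested marginal zone macrophage markers 0 passed by any of the 3 tools, and Cd209b, at 0.11 to 0.27 CPM, was below the filter. Of 6 monocyte markers 0 passed by edgeR or limma-voom and 1 as higher by DESeq2, where 11.6% of all tested genes did. Their summed levels were 399 and 237 CPM in wild type, against 565 and 527 CPM in the knockout libraries. By edgeR 3 had a positive log2 fold change and 3 a negative. Both knockout libraries lay above both wild-type libraries for 2 markers and below for 2. Ly6c2, the most abundant of them in the knockout, had 159 and 49.3 CPM in wild type, against 375 and 345 CPM in the knockout libraries. The B cell markers summed to 5291 and 3978 CPM in wild type, against 2841 and 2120 CPM in the knockout libraries. Of these 6, 0 passed by edgeR or limma-voom, 3 were lower at an unadjusted p under 0.05 and 3 were lower by DESeq2. T cell markers summed to 976 and 616 CPM in wild type, against 414 and 367 CPM in the knockout libraries. Of the 6 T cell markers 0 passed by edgeR or limma-voom, 4 were lower at that unadjusted p and 1 was lower by DESeq2. Over all tested genes 12.3% were lower at that unadjusted p, and 6.58% passed as lower by DESeq2. With 1 library left out the median log2 fold change of the B cell markers ran from -1.22 to -1.05. That of the T cell markers ran from -1.30 to -0.68. The part of these cells in the values of the iron genes was not tested.

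A list of 75 other genes of iron handling held 64 that could be tested. Of these, 15 passed as higher (23.4%, where 5.9% of all tested genes did) and 0 as lower (0.392% of all). At an unadjusted p under 0.05, 3 were lower (12.3% of all). DESeq2 passed 2 as lower (6.58% of all) and limma-voom 0 (0.495% of all). Their median log2 fold change was 0.56, against -0.056 for all tested genes. Without wild-type library 1 the list had 24 genes passing as higher and 4 as lower, where 16.4% and 14.6% of all tested genes passed. Without wild-type library 2 it had 20 and 1, where 10.8% and 4.24% of all passed.

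Among the genes of uptake and the endosome, 2 of 10 tested passed as higher, where 5.9% of all tested genes did. A positive log2 fold change was found for 9 of 10 (median 0.73), against 6477 of 13532 tested genes. Tfr2, the second transferrin receptor and a partner of the erythropoietin receptor in erythroid cells, rose by 3.47 on the log2 scale, from 3.88 ± 0.069 to 43.1 ± 2.67 CPM (SD, n = 2; adjusted p 0.011). Slc39a8, the metal importer ZIP8, rose from 3.47 ± 1.69 to 29.1 ± 3.29 CPM (adjusted p 0.016). Its relative Slc39a14 had 9.15 ± 2.31 and 3.86 ± 0.11 CPM (log2 fold change -1.25, adjusted p 0.12), and leaving out wild-type library 1 made it pass as lower (-1.496, adjusted p 0.017).

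Of 7 tested iron-regulatory and ferritin turnover genes, 0 passed by edgeR, DESeq2 or limma-voom. By edgeR 1 was higher at an unadjusted p under 0.05, where 15.5% of all tested genes were. That gene was Ncoa4, the receptor that delivers ferritin to lysosomes, with 97.4 ± 46.1 and 208 ± 21.02 CPM (log2 fold change 1.09, adjusted p 0.17). Herc2, a ubiquitin ligase that acts on Ncoa4, had 65.7 and 224 CPM in wild type, against 47.6 and 85.4 CPM in the knockout libraries. The genotypes overlapped, and the log2 fold change was -1.12 (adjusted p 0.27 by edgeR). Dropping wild-type library 1, which lay within the knockout range, gave -1.76. The iron-regulatory proteins that bind the hairpins shown above had smaller differences, Aco1 with 22.3 and 24.9 CPM in wild type, against 30.3 and 27.7 CPM in the knockout libraries. For Ireb2 the values were 35.8 and 68.6 CPM in wild type, against 31.5 and 41.2 CPM in the knockout libraries, which overlap.

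Mitochondrial iron and iron-sulphur cluster genes had 5 of 16 passing as higher, where 5.9% of all tested genes did. A positive log2 fold change was found for 15 of 16 (median 1.43), against 6477 of 13532 tested genes. Glrx5, a glutaredoxin that passes clusters on, rose by 3.63, from 35.2 ± 10.3 to 437 ± 251 CPM (adjusted p 0.016). Abcb10, a mitochondrial transporter that binds mitoferrin, rose by 2.81 (adjusted p 0.030). The assembly factors Isca1 and Isca2 each rose by 2.03 (adjusted p 0.040 and 0.032), and leaving out knockout library 1 gave them adjusted p of 0.29 and 0.30. Both also missed the threshold with library totals alone (0.064 and 0.085). Slc25a28, the second mitoferrin, had 41.2 and 24.3 CPM in wild type, against 42.3 and 29.7 CPM in the knockout libraries (adjusted p 0.86), whereas Slc25a37 differed as given above.

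Among haem recycling and export genes 3 of 12 passed as higher, where 5.9% of all tested genes did. A positive log2 fold change was found for 8 of 12 (median 0.41), against 6477 of 13532 tested genes. Abcg2, an exporter of porphyrins, rose by 3.61, and Blvrb, a biliverdin reductase abundant in red cells, rose by 3.54 (adjusted p 0.017 and 0.021). Hp, which encodes haptoglobin, rose from 37.0 ± 28.4 to 416 ± 65.0 CPM (adjusted p 0.024). Slc48a1, the haem transporter of the macrophage phagosome, had 122 and 75.5 CPM in wild type, against 471 and 249 CPM in the knockout libraries, with a log2 fold change of 1.87 (adjusted p 0.070). Cd163, the receptor for haemoglobin bound to haptoglobin, had 8.67 and 26.0 CPM in wild type, against 21.9 and 21.9 CPM in the knockout libraries, and it is also on the macrophage marker list.

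Of the hormones and signals of iron balance, Erfe rose most. Erfe, the erythroferrone by which erythroblasts lower liver hepcidin, had 0.29 and 0.66 CPM in wild type, against 16.6 and 13.7 CPM in the knockout libraries (log2 fold change 4.97 ± 0.57, adjusted p 0.011). Id1, a target of BMP signalling, rose by 2.81 (adjusted p 0.027), but not without knockout library 1 (2.65, adjusted p 0.051). Smad7, an inhibitor in the same pathway, had a log2 fold change of -1.33 (adjusted p 0.089), and leaving out wild-type library 1 or 2 made it pass as lower (-1.45 and -1.21, adjusted p 0.0086 and 0.036). Hamp, the hepcidin gene, was at 0 in wild type and at 0.19 and 0.069 CPM in knockout, too low to test.

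Among regulators of transcription Mafg, a small Maf protein that pairs with Bach1 and Nfe2l2 at haem-regulated genes, rose by 1.68 on the log2 scale (adjusted p 0.047). Its adjusted p was 0.28 and 0.15 with knockout library 1 or 2 left out, 0.18 with library totals alone, 0.054 by size factors of DESeq2 and 0.051 once haemoglobin and mitochondrial genes were removed. Hif1a, the oxygen-regulated factor, had 35.5 and 102 CPM in wild type, against 15.4 and 25.9 CPM in the knockout libraries, with a log2 fold change of -1.73 (adjusted p 0.11). It passed as lower without wild-type library 1 (-2.32, adjusted p 1.5e-04) and by DESeq2 (0.016). The iron binders of neutrophil granules were among the largest rises, Lcn2 by 6.18 and Ltf by 6.06, both with an adjusted p of 0.011, and Ltf is also on the neutrophil marker list.

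**Figure D4:**
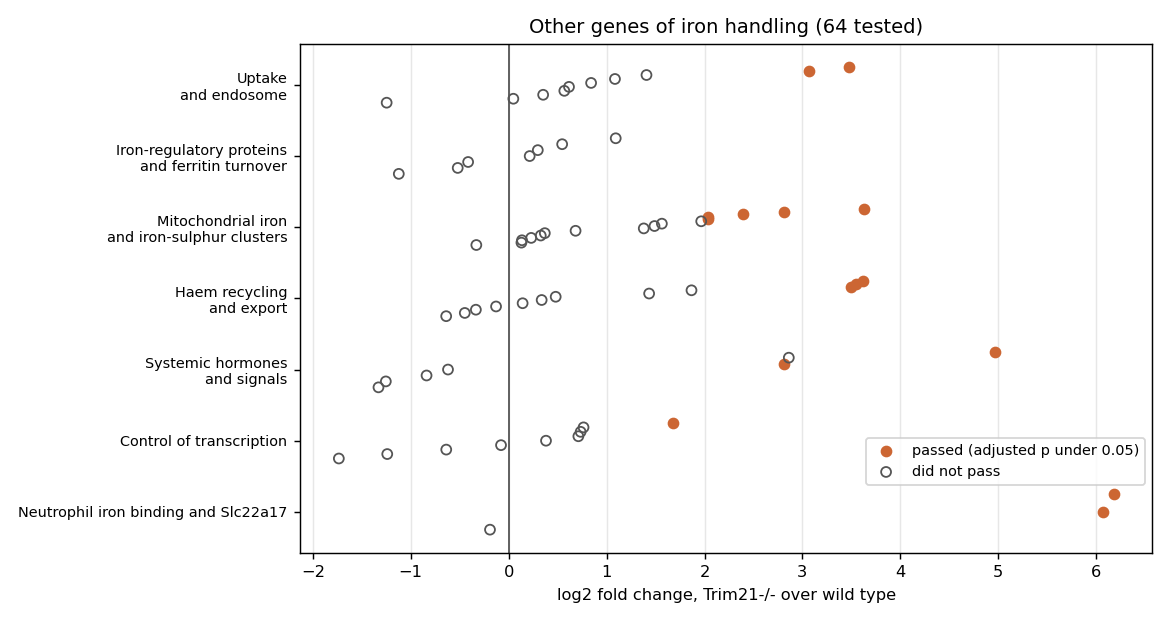
Log2 fold change, knockout over wild type, of the 64 tested genes of iron handling other than the 10 main genes, 1 point per gene, in 7 groups by role. Filled points are the 15 that passed, all to the right of 0, and the iron-regulatory group has none.

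Genes whose profile over the 4 libraries lay nearest were found by Euclidean distance between log2 CPM values centred on each gene's mean, among 8378 genes with a mean of at least 10 CPM. Nearest to Tfrc were Tom1l1 (0.18), Spire1 (0.21) and Prc1 (0.26). Around Slc25a37 were Metap2 (0.13), Fbxo5 (0.20) and Cep76 (0.24). Nup155 (0.069), Lima1 (0.093) and Mtbp (0.12) lay nearest to Slc40a1, and Clpx (0.084), Ifrd1 (0.093) and Ube2h (0.095) to Spic. With 4 libraries such a distance describes these samples and no more.

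The RefSeq promoter table (GRCm38.p6) held 11 windows for 6 of the 10 genes. In the 250 bases before the start, on both strands, the GATA letters AGATAA stood in 1 of these windows, at Steap3, as in 9.99% of 32851 windows of that length. The letters CCACACCC, TGACTCAGC, GAGGAAGT and CACGTG stood in 0 of the 11, against 3.2%, 0.39%, 2.44% and 6.02% of all windows.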

How the data were processed

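Splenocyte RNA of UVB-exposed mice (4 samples) was ribodepleted, made into stranded libraries and read as single 75-base reads, per the labels' protocols. The deposited table holds the authors' estimated counts by Ensembl gene, all of them whole numbers. STAR 2.5.0, RSEM 1.2.25, SAMtools 1.18 and GRCm38 are named in the submitters' processing notes, without roles. For the annotation release and the strand setting, nothing is given in the sources used here. Of 25509 gene rows 25251 matched GENCODE M21, and 92 spike-in rows held 0 counts and were left out.

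Groups came from the sample titles. Counts, which rounding left unchanged, were fitted with edgeR 4.0.16 in R 4.3.3 (TMM, filterByExpr, robust quasi-likelihood F test, 2 residual degrees of freedom), and the SE is the absolute log2 fold change over the root of F. The pipeline was run on simulated counts with less spread between libraries than the main fit found. That run therefore does not measure how often real differences are found here. Alternatives used DESeq2 1.42.0, limma-voom 3.58.1, other scalings, filters and thresholds, a replicate block, or 1 library fewer. Library pairs of a genotype differed beyond sampling noise (chi-square per degree of freedom 507 and 369). The 10 genes, the iron and marker lists (erythroblasts, red pulp and marginal zone macrophages, neutrophils, monocytes, B, T and dividing cells) and the tests were chosen with earlier results of these data known. Named genes were the 10, up to 5 passing genes (or the 2 with the smallest p) per group of the iron list, the most abundant markers and the 3 nearest profiles. Some genes this rule names are not reported here. Other genes named (Aco1, Ireb2, Slc25a28, Slc39a14, Slc48a1, Cd163, Smad7, Hamp) were picked after their values were seen. Intervals of counting error are not given, since the spread between libraries is far larger.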

Additional observations from a re-analysis of the deposited data

How the results depend on the processing

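Of the 10 genes, 2 passed as higher, against 6 by DESeq2, 4 by limma-voom, 4 with no filter, 7 with the replicate block, 4 at an adjusted p under 0.10 and 0 at 0.01; with 1 library left out the count was 2 to 4, and 0 passed as lower in every analysis run. Of the other iron genes 15 passed as higher, against 23 by DESeq2, 28 with the block and 0 at 0.01, and 10 to 24 with 1 library left out. The 0 passing as lower became 3 with library totals alone, 2 by DESeq2, 1 with no filter, 5 with the block and 1 at 0.10, and 0 to 4 with 1 library left out. Over all genes 798 passed as higher and 53 as lower. With DESeq2 these were 1575 and 891, without a filter 1278 and 490, with the block 3036 and 2669, 1373 and 558 at 0.10 and 0 and 0 at 0.01, while library totals alone gave 1376 lower. With 1 library left out they ran from 601 to 2300 higher and from 30 to 2047 lower. The signs of Slc40a1 (-0.16 with library totals alone, -0.091 without wild-type library 1) and Slc11a1 (-0.21 with library totals alone) turned; with 1 library left out Slc40a1 ran from -0.091 to 0.89, and the other 8 genes kept theirs in 13 of 13 other fits. The cause of these shifts was not tested. Same-numbered libraries deviated together (r = 0.63 across 11906 genes), but the labels give a number and no shared animal or day, so the block is not the main analysis. With the block Tfrc, Slc25a37, Fth1 (adjusted p 8.5e-06), Ftl1 (3.7e-05) and Hmox1 (0.037) passed beside Steap3 and Slc11a2. With 1 library left out, the spread of the genotype with a single library is taken from the remaining pair.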

Other observations

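Library number went with the level of some iron genes within both genotypes. Library 2 held 0.562 of the Fth1 level of library 1 in wild type and 0.582 in knockout, and 0.425 and 0.522 of the Ftl1 level. Slc40a1 went the other way, with library 2 at 1.96 times library 1 in wild type and 1.45 times in knockout. Tfrc and Slc25a37 did not share a direction: library 2 was 4.25 and 2.45 times library 1 in wild type, and 0.765 and 0.776 times in knockout. Libraries 1 had Y-linked counts and almost no Xist and libraries 2 the reverse, so library number and this pattern cannot be told apart.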
